A study of Equus caballus with 68 samples.

Results

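The libraries described here follow bone marrow mononuclear cells (BMNC) in healthy synovial fluid (SF) from 96 hours to 6 days of culture. They were chosen by fluid and time as labelled, 8 libraries at 96 hours and 8 at 6 days, paired by horse, and are 16 of the 68 libraries of the series. The 8 Thoroughbred horses were 3 to 9 years old, 6 of them geldings and 2 females. The cells of each horse were isolated by density gradient and kept apart from those of other horses under cell-depleted SF from a healthy middle carpal joint of the same horse, with more of that fluid added every 48 hours, so both groups had SF throughout, and the wells kept for 6 days had also received more of the stored fluid by then. Each library is 1 well of a mixed culture, sequenced as bulk RNA after the cells were lifted with EDTA, so fewer cells of a type and less RNA per cell cannot be told apart. The same horses also gave BMNC cultures in fluid from joints inflamed with lipopolysaccharide (ISF), which are used below only for comparison.

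BMNC are a mixture of monocytes, granulocytes and their precursors, lymphocytes and progenitors. In joint fluid, monocytes are known to mature into macrophages, the cells that clear debris and regulate inflammation in the synovium, while granulocytes are short-lived. Expression was read as GeTMM, a read count corrected for gene length and scaled to be comparable across libraries, so levels of different genes can be set side by side. Changes are differences in log2(GeTMM + 1), which understate the fold change of low genes. A differentially expressed gene (DEG) is one whose Benjamini-Hochberg adjusted p (FDR) was below 0.05 in limma, fitted to all 68 libraries with a term for horse, over 14570 genes that reached 0.5 GeTMM in at least 7 libraries. In counts over a list of genes, those said to rise or fall are DEG.

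One library stood apart before any comparison. The SF library of the horse Moon at 6 days had a sum of 2.32 M GeTMM, against 0.887 to 1.01 M in the other 15 and at most 1.46 M in the other 67 of the series. Its depth was ordinary, with 20.8 M reads on genes in a range of 19.2 to 24.7 M over the 16 libraries (median 22.4), but it held 12797 genes above 0 where the other 15 held 15366 to 16655. Of the genes tested, 2763 were at 0 in that library, and 431 to 842 in each of the others. The genes tested were split by length into 10 classes of 1457. In class 1, the shortest genes, the median change was 0 in every horse. Between the libraries of Moon it was 0.31 in class 2 and -0.79 in class 10, the longest. The other 7 horses stayed within -0.03 to 0.11 and -0.08 to 0.09 in these 2 classes. Some transcripts were very high in it. FTL, a ferritin subunit, was at 98959 GeTMM against 15714 to 26272 in the other 6-day libraries, and APOE, an apolipoprotein made by macrophages, was at 77718 against 5166 to 12800. Results are therefore given with and without this library, and its part in those that differ was not tested beyond that.

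**Figure D1:**
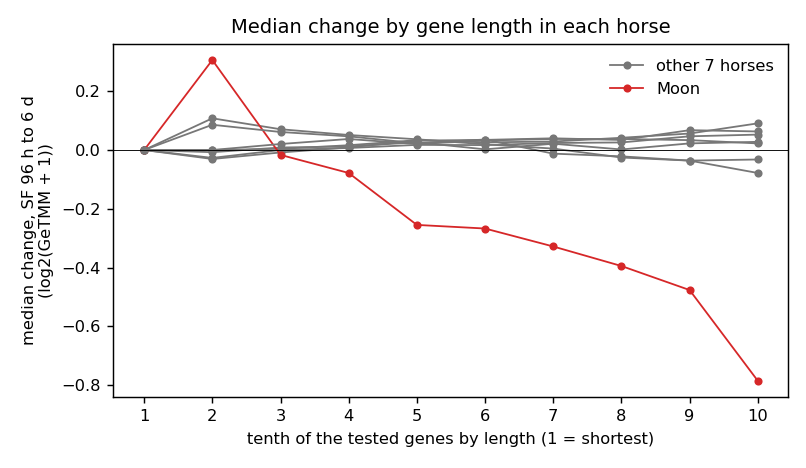
The x axis gives the 14570 tested genes in 10 classes of equal size by length, shortest first, and the y axis the median change from SF 96 hours to SF 6 days within a horse, in log2(GeTMM + 1), 1 line per horse. All lines are at 0 in class 1. The line of Moon then falls from 0.31 in class 2 to -0.79 in class 10, while the other 7 lines lie close to 0.

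From 96 hours to 6 days, 558 of the 14570 genes were DEG (3.83%), 164 of them higher (1.13% of the genes tested) and 394 lower (2.7%) at 6 days. Some granulocyte, early response and histone genes were among those that fell, and some adhesion and cytoskeleton genes among those that rose. The median change was 0.61 for the DEG that rose and -0.76 for those that fell, and 151 DEG changed by at least 1 on the log2 scale, 30 upward and 121 downward. Of the DEG, 400 moved in the same direction in all 8 horses (71.7%, against 6.48% of all genes tested) and 537 in at least 7. The DEG were called from these same libraries, so this agreement follows in part from the call and is no separate support. Without the library of Moon the count was 537 DEG (3.69%), 206 higher (1.41%) and 331 lower (2.27%). Of the 558 DEG, 347 were called in both fits, 87 that rose and 260 that fell, and every one of the 558 kept its sign. A fit of only the 14 SF libraries of the other 7 horses called 1501 genes (10.3%), 829 of them higher, including 443 of the 558. With all libraries of 1 horse left out, the count was 357 without Dreamer, 350 without Ollie, 334 without Lurie and 313 without RimRun, and the split between higher and lower genes also moved with the libraries used. The groups did not overlap at all for 39 of the genes tested (0.268%).

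The change within a horse was measured as the root mean square (RMS) of the difference over all genes tested. In SF it was 0.341 in Catnip, 0.406 in Dealings, 0.427 in Dreamer, 0.418 in Flash, 0.499 in Lurie, 0.427 in Ollie and 0.538 in RimRun, and 1.53 in Moon. The mean was 0.573 ± 0.391 (SD, n = 8) with Moon and 0.437 ± 0.0642 (n = 7) without. In ISF over the same interval the mean was 0.562 ± 0.0987 (n = 8), with Moon the lowest horse at 0.427. The change was smaller in SF than in ISF in 6 of 8 horses, with a mean difference of 0.0114 (exact permutation p = 0.992, two-sided). The value of Moon was 1.10, and the other 7 horses lay between -0.314 and 0.0144. In the other 7 horses the difference was -0.144 (lower in SF in 6 of 7, exact permutation p = 0.0313), and it was -0.0893 in the 5 horses left (lower in 4, exact permutation p = 0.125) when Dealings and Dreamer were also left out. The ISF libraries of these 2 horses at 96 hours were most like the 6-day ISF library of the other of the pair (correlation of deviations from the group means 0.5208 and 0.5677) and not their own horse's (0.0086 and 0.106). With 5 horses this test cannot reach 0.05.

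**Figure D2:**
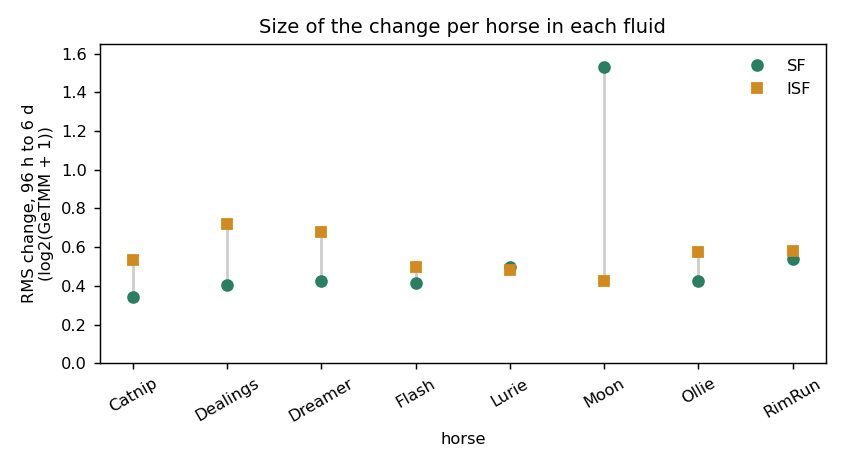
RMS change from 96 hours to 6 days over the 14570 tested genes (y axis, log2(GeTMM + 1)) for each horse (x axis), with circles for SF and squares for ISF. Moon is at 1.53 in SF and 0.427 in ISF, and 6 of the other 7 horses have the lower value in SF.

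The mixed cultures were checked first for macrophage genes, which were abundant at both times. None of the 13 tested entries of the macrophage list passed the test. Their median change was 0.33, against -0.01 over all genes tested, and 12 of 13 were positive. CD68, a lysosomal protein of macrophages, ranged from 2462 to 3985 GeTMM at 96 hours (median 3313) and from 2590 to 5299.6 at 6 days (median 3741), and the groups overlapped almost wholly. GPNMB, a glycoprotein of lysosome-rich macrophages, had medians of 13313 and 13373. SPP1, the secreted matrix protein osteopontin, ranged from 1939 to 24293 (median 8153) and then from 3436 to 84081 (median 14971), with a change of 1.05 ± 0.47 (SE) that did not pass (limma FDR 0.184) although 7 of 8 horses were higher. The complement genes C1QB and C1QC, the lipid receptor TREM2 and the scavenger receptor CD163 did not pass either, with changes of 1.18, 1.11, 0.66 and 0.17. The exception to the marker check was CD14, the lipopolysaccharide co-receptor, whose 2 entries had medians of 0.447 and 0.195 GeTMM at 96 hours and stayed near 0.

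Markers of other cells were checked in the same way. No gene passed among the 8 tested T cell, 8 cytotoxic and NK cell, 7 B and plasma cell, 6 erythroid, 5 basophil, mast cell and eosinophil, 4 megakaryocyte and 8 stromal entries. Outside these lists, single genes picked after their values were seen did fall. NCR1, a receptor of NK cells, had a change of -1.83 (limma FDR 6.6e-05), and -2.01 without Moon's library (limma FDR 2.2e-05). MPIG6B, a receptor of megakaryocytes and platelets, had a change of -1.52 (limma FDR 7e-06), and -1.32 without that library (limma FDR 4.3e-05). Each was lower in 8 of 8 horses. The summed level of the T cell list lay between 86.3 and 321 GeTMM at 96 hours and between 103 and 358 at 6 days. The erythroid list did not exceed 4.11 GeTMM at 96 hours or, outside Moon at 11.99, 1.94 at 6 days. Of 8 dendritic cell genes only FSCN1 rose, an actin-bundling protein that other cells also express (change 0.77, limma FDR 0.0354), and it was not called without Moon's library (limma FDR 0.0515). Of 12 cell cycle genes none passed, with a median of -0.18. The stromal list had a median change of 1.00 (1.21 without Moon's library), with 7 of 8 entries positive and none called. Its collagen and proteoglycan genes were at 0 or near it in most libraries, whereas THY1 and SPARC, which other cells also express, had medians of 370 and 48.7 GeTMM at 96 hours. COL1A1, a chain of type I collagen, had medians of 0.22 and 0.842 GeTMM and reached 71.7 in the 6-day library of Lurie, and LUM, the proteoglycan lumican, had medians of 0.015 and 1.46 and did not pass (change 1.504 ± 0.60, limma FDR 0.138). Summed over 5 collagen and proteoglycan genes, Lurie went from 0.842 to 181 GeTMM, Flash from 0.0255 to 39.0 and Dealings from 46.2 to 60.8, while the other 5 horses were at 4.6 or less at 6 days.

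Several granulocyte genes fell. CSF3R (ENSECAG00000013457), the receptor for granulocyte colony-stimulating factor, ranged from 55.1 to 220 GeTMM at 96 hours (median 140) and from 8.2 to 90.1 at 6 days (median 44). Of the 6-day libraries, 6 lay below the lowest at 96 hours, and the level was lower in 8 of 8 horses (change -1.81 ± 0.38, limma FDR 0.0018), also without Moon's library (change -1.89). S100A12, an abundant granulocyte calcium-binding protein of the same mature neutrophil list, did not pass (change -0.12).

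A wider list of granulocyte receptors and enzymes was written after the values had been seen, so its counts are a description. Of its 19 tested genes 12 fell, against 2.7% of all genes tested, and none rose. The median change was -1.10, and the same counts came without Moon's library. ALPL, an alkaline phosphatase of mature neutrophils, went from a median of 82.3 to 24.8 GeTMM (change -1.67 ± 0.36), and VNN1, a pantetheinase, from 272 to 110 (change -1.45 ± 0.25). MXD1, a partner of MAX that opposes MYC, went from 107 to 39.0, and CRISPLD2, a secreted protein, from 6.85 to 1.66. All 4 were lower in 8 of 8 horses. ADGRG3, an adhesion receptor of neutrophils, passed with all libraries (change -0.89, limma FDR 0.0243) and not without Moon's library (limma FDR 0.0520). Neutrophil precursor genes gave lower values that did not pass. MPO, ELANE and AZU1, which encode enzymes and proteins of primary granules, were lower in 8 of 8 horses, with changes of -1.396, -1.28 and -1.09 and limma FDR of 0.0769, 0.152 and 0.208, and none of the 6 entries of that list was called.

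**Figure D3:**
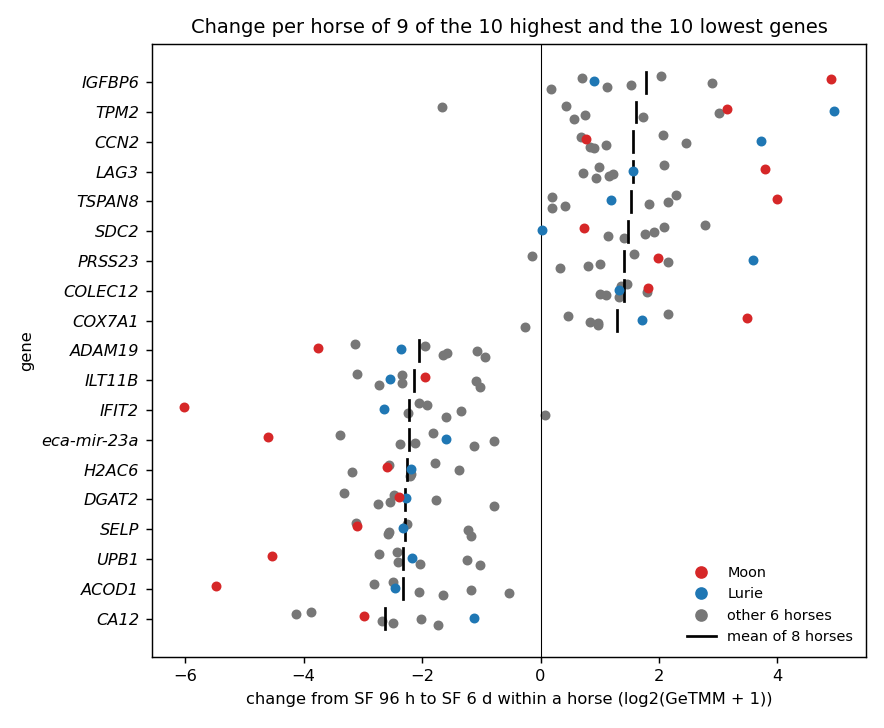
Change from SF 96 hours to SF 6 days within each horse (x axis, log2(GeTMM + 1)) for 9 of the 10 highest and the 10 lowest genes under the naming rule (y axis), 1 point per horse, Moon and Lurie in colour, the black bar being the mean of 8 horses. Moon is the lowest horse for ACOD1 (-5.49) and IFIT2 (-6.02), and Lurie is the highest for TPM2, CCN2 and PRSS23.

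Of the DEG with a symbol of their own, at least 5 GeTMM in 1 group and the same direction in at least 7 horses, 382 met all conditions, and the 10 with the largest falls had changes from -2.63 to -2.05. CA12, a membrane carbonic anhydrase, went from 2.48 to 50.0 GeTMM (median 8.12) to 0 to 11.6 (median 0.6), with 7 of 8 libraries at 6 days below the lowest at 96 hours. UPB1 (ENSECAG00000017804), which completes the breakdown of pyrimidines, ranged from 8.83 to 35.7 (median 21.3) and then from 0 to 8.59 (median 4.46), without overlap (change -2.32 ± 0.25, limma FDR 7.4e-09). SELP, the adhesion receptor P-selectin of platelets and other cells, fell from a median of 61.9 to 11.7. It was not on the megakaryocyte list. DGAT2, which makes triglycerides, fell from 64.6 to 12.8. ACOD1, the enzyme that makes itaconate in activated macrophages, ranged from 27.1 to 162 (median 50.7) and then from 2.64 to 28.5 (median 12.01), lower in 8 of 8 horses (change -2.33 ± 0.49). The receptor gene ILT11B and the metalloprotease gene ADAM19 fell by 2.14 and 2.05 on the log2 scale. All 10 passed without Moon's library, in which UPB1, CA12, H2AC6 and the entry of eca-mir-23a were at 0. Because same direction was a condition of the choice, the exact permutation p of 0.00781, the smallest that 8 horses allow, follows from the choice for the genes that moved alike in every horse.

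Reads on the annotated hairpin of eca-mir-23a were also among the 10 largest falls, from 17 to 40 reads per library at 96 hours to 0 to 26 at 6 days (medians 24.1 and 5.73 GeTMM). The entries of eca-mir-24-1 and eca-mir-223, a miRNA abundant in myeloid cells, were DEG as well (changes -1.72 and -1.94), the latter with a limma FDR of 0.137 without Moon's library. The values are reads on the short hairpin entries and not levels of the mature miRNAs.

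The listed interferon-stimulated genes did not fall as a group. IFIT2, an interferon-induced protein that binds RNA, ranged from 119 to 277 GeTMM at 96 hours (median 223) and from 3.3 to 126 at 6 days (median 57.1). It was lower in 7 of 8 horses (change -2.22 ± 0.46, limma FDR 0.0014) and, without Moon's library, its change was -1.67 (limma FDR 0.0088). It was the only one of 12 tested genes of the list to pass, and the median of the list was 0.04. Outside the list, ISG20, picked after its values were seen, was lower in 7 of 8 horses (change -1.53, limma FDR 0.013). Without Moon's library its change was -1.76 (limma FDR 0.0048).

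Among 13 inflammatory mediators, IL1B and NFKBIA fell, against 2.7% of all genes tested, and none rose, with a median change of -0.24. IL1B, which encodes the cytokine interleukin-1 beta, ranged from 3.62 to 14.6 GeTMM at 96 hours (median 9.95) and from 1.13 to 6.08 at 6 days (median 2.84). All 8 horses were lower and the groups overlapped in part, with 5 libraries at 6 days below the lowest at 96 hours (change -1.33 ± 0.30, limma FDR 0.0039, and -1.31 without Moon's library). NFKBIA, the inhibitor that holds NF-kappaB in the cytoplasm and is itself one of its targets, fell from a median of 92.4 to 50.6 (change -0.91 ± 0.25, lower in 8 of 8 horses). TNF, another early cytokine, had medians of 6.94 and 4.3 and was lower in 8 of 8 horses, but it did not pass (limma FDR 0.0543). The chemokine genes CXCL8 and CCL2 gave changes of -0.99 and 0.98 that did not pass either. IL6R, the receptor chain for interleukin-6, and NOD2, a sensor of bacterial wall fragments, were singled out after their values were seen. IL6R fell from a median of 107 to 38.4 (change -1.67) and NOD2 from 14.2 to 6.23 (change -1.09).

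Genes of the early response and of NF-kappaB signalling were listed after the values had been seen, so their counts are a description. Of 25 early response genes 8 fell, against 2.7% of all genes tested, and none rose. The same counts came without Moon's library, against 2.27% of all genes tested. DUSP1, a phosphatase that switches off MAP kinases, ranged from 43.0 to 140 GeTMM (median 82.5) and then from 17.1 to 55.7 (median 20.97), with 6 of 8 libraries below the lowest at 96 hours (change -1.65 ± 0.20, limma FDR 1e-07). CEBPB, a transcription factor of myeloid cells, fell from a median of 174 to 103.6. IER5, a growth factor-induced gene, and JUNB, a subunit of the AP-1 factor, fell without overlap of the groups, JUNB from 110 to 169 GeTMM (median 142) to 81.5 to 109 (median 95.4), a small change of -0.52 ± 0.14. Of 19 NF-kappaB genes 5 fell with all libraries and 3 without Moon's, against the same 2.7% and 2.27%. RELA, an activating subunit, had a change of -0.57 and was also called without that library (-0.36, limma FDR 0.0227), as was the kinase gene IKBKB (-0.58 and then -0.33, limma FDR 0.0412). The adaptor gene MYD88, with 15.6 GeTMM in Moon and a 6-day median of 116, and the kinase gene MAP3K14 lost theirs (limma FDR 0.0591 and 0.0787).

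**Figure D4:**
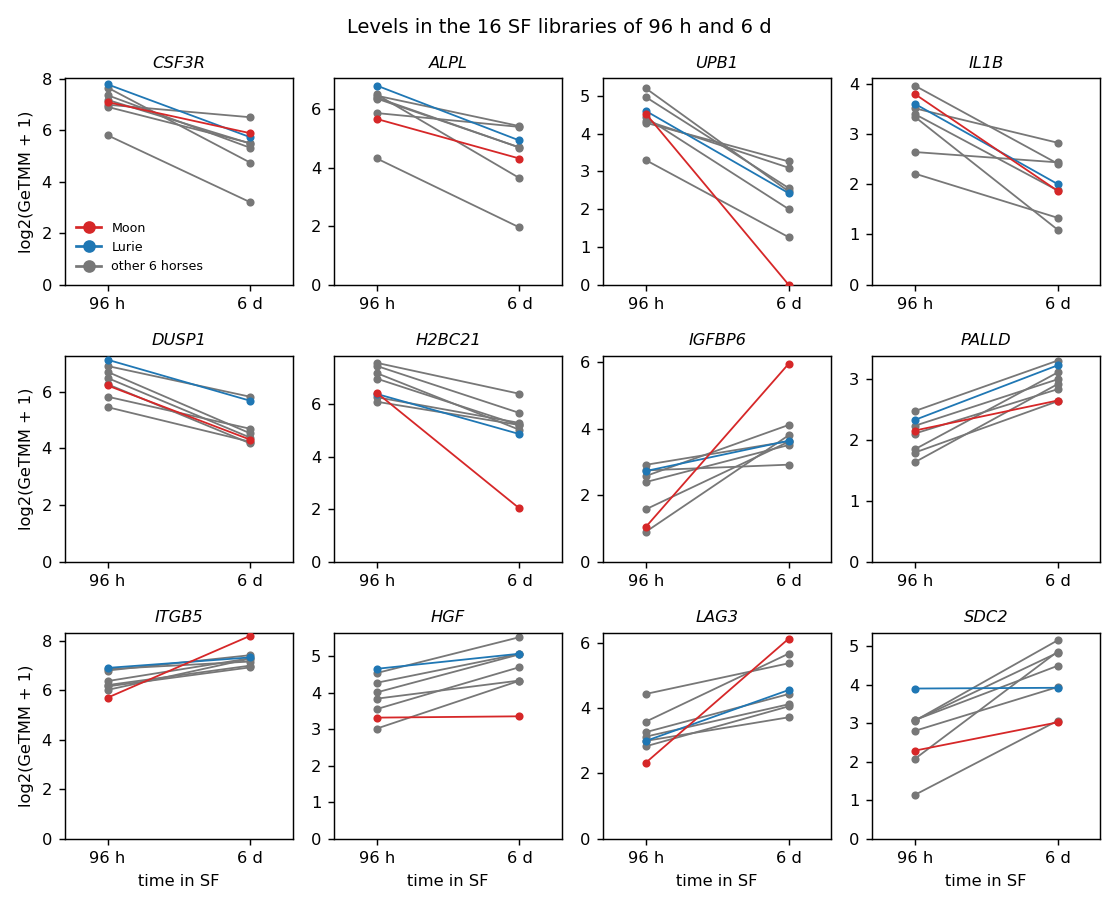
Levels of 12 genes (y axes, log2(GeTMM + 1)) at 96 hours and 6 days in SF, 1 line per horse, with Moon and Lurie in colour. CSF3R, ALPL, UPB1, IL1B, DUSP1 and H2BC21 were lower at 6 days in every horse, IGFBP6, PALLD, ITGB5, HGF, LAG3 and SDC2 higher. Moon fell most for UPB1 and H2BC21 and rose most for IGFBP6, ITGB5 and LAG3. Moon was nearly flat for HGF, as was Lurie for SDC2 (0.02).

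Some histone genes fell, a group made by symbol after the values had been seen, so its counts are a description. The replication-dependent genes encode the histones that package new DNA in S phase, and most of their transcripts end without a poly(A) tail. Of 58 tested genes 11 fell, against 2.7% of all genes tested, and none rose. Without Moon's library 12 fell, against 2.27%. The median was -0.21, close to the -0.18 of the cell cycle list, in which none passed and 9 of 12 were negative. H2BC21 ranged from 67.5 to 191 GeTMM at 96 hours (median 106) and from 3.08 to 83.5 at 6 days (median 35.9), with 7 of 8 libraries below the lowest at 96 hours (change -1.84 ± 0.27, limma FDR 5.3e-06). The lowest at 6 days was Moon's, with Lurie next at 28.1. Without Moon's library the change was -1.44 (limma FDR 2e-06). H2AC6 fell from a median of 7.16 to 0.208, H2BC4 from 8.93 to 0.971 and H1-4, a linker histone gene, from 6.85 to 1.56. Many of these genes are near-identical copies, so reads may be split between them. TOP2A, a topoisomerase of dividing cells, had medians of 29.8 and 18.3 GeTMM and did not pass (change -0.60, limma FDR 0.209).

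IGFBP6 (ENSECAG00000019633), which binds insulin-like growth factor II, ranged from 0.863 to 6.54 GeTMM at 96 hours (median 4.62) and from 6.57 to 60.9 at 6 days (median 11.4), without overlap. The values rest on 11 to 92 and 108 to 481 reads (change 1.79 ± 0.38, limma FDR 0.0021), and the gene passed without Moon's library, the highest at 6 days (change 1.45). LAG3, a receptor that binds MHC class II, went from a median of 7.33 to 21.4 and was higher in 8 of 8 horses (change 1.56 ± 0.37). COLEC12, a scavenger receptor, went from a median of 6.56 to 19.0 (change 1.403 ± 0.35), and COX7A1, a subunit of cytochrome c oxidase, from 17.1 to 35.2 (change 1.29 ± 0.32). TSPAN8, a tetraspanin, was higher in 8 of 8 horses (change 1.53) but was not called without Moon's library (limma FDR 0.106). Of growth and repair factors, 1 of 10 tested genes rose. This was HGF, the hepatocyte growth factor, which ranged from 7.11 to 24.3 GeTMM (median 14.2) and then from 9.25 to 45.1 (median 28.7), higher in 8 of 8 horses (change 0.78 ± 0.20, limma FDR 0.0114). VEGFA, an angiogenic factor, had a change of -0.81 that did not pass although all 8 horses were lower.

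Genes of the actin cytoskeleton and of adhesion were listed after the values had been seen, so their counts are a description. Of 19 tested genes 9 rose, against 1.13% of all genes tested, and none fell. The median change was 0.77 (10 rose without Moon's library). PALLD, an actin-binding scaffold, ranged from 2.11 to 4.56 GeTMM (median 3.38) and then from 5.22 to 8.88 (median 6.77), without overlap (change 0.89 ± 0.18, limma FDR 0.0013). ITGB5, an integrin chain that binds vitronectin, went from 51.0 to 119 (median 77.4) to 121 to 294 (median 155), also without overlap (change 0.95 ± 0.20). Its highest library at 6 days was Moon's. SDC2, a heparan sulfate proteoglycan of the cell surface, rose from a median of 6.66 to 17.9 (change 1.48 ± 0.37), FHL2, an adaptor at focal adhesions, from 5.51 to 11.4, and MYO10, a motor of filopodia, from 2.9 to 7.03. In the same list TPM2, a tropomyosin, went from a median of 0.847 to 5.32 with 54.0 in Lurie and an FDR of 0.117 in limma without Moon's library, and CCN2, a matrix-associated signalling protein, from 1.48 to 6.03 with 37.6 in Lurie. Lurie at 6 days is also the library with the highest stromal collagens, and the part of these cells in the result was not tested. Without this horse, PALLD, ITGB5 and SDC2 stayed DEG (limma FDR 0.0066, 0.0017 and 0.0084), whereas TPM2, CCN2, FHL2, MYO10 and FSCN1 did not (limma FDR 0.0650 to 0.162), nor did PRSS23, a secreted protease, TSPAN8 and COX7A1 (limma FDR 0.0750, 0.0560 and 0.0517). The change was smaller without Lurie for TPM2 (1.14 against 1.62), CCN2 (1.26 against 1.57) and PRSS23 (1.10 against 1.41), and about as large for FSCN1 (0.77 in both), MYO10 (0.66 against 0.73), COX7A1 (1.23 against 1.29) and TSPAN8 (1.58 against 1.53), with FHL2 between (0.92 against 1.07). CCL26, a chemokine gene singled out after its values were seen for the highest change of any DEG (1.99), was at 0 to 0.481 GeTMM at 96 hours and rose in 5 of 8 horses, to 55.9 in Lurie, and it was at 0 in Moon.

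The lists for lipid handling and energy use held no DEG in this interval, although single genes outside them did pass, such as DGAT2 and COX7A1 above. In the sterol synthesis list none of 17 tested genes passed (median 0.09), nor did any of 12 lipid uptake and efflux, 13 lysosome, 12 respiratory chain, 10 glycolysis, 10 matrix protease and inhibitor, 9 antigen presentation, 10 NRF2 and iron, 9 endoplasmic reticulum stress or 10 ribosomal protein genes. APOE, which carries lipids out of macrophages, had the lowest FDR of the lipid uptake and efflux list, at a change of 0.93 with the library of Moon (limma FDR 0.106) and 0.51 without. The ribosomal protein list had a median of 0.35 with that library and 0.14 without. DDIT3, a transcription factor of the stress response, passed only when Moon's library was left out (change -0.90, limma FDR 0.0125), and so did the integrin gene ITGB3 of the osteoclast list (change 1.19, limma FDR 0.0226). In the opposite way, CKB, the brain-type creatine kinase, and S100A13, the sole riser of 7 S100 genes, passed with all libraries (changes 1.07 and 1.20) and not without Moon's (limma FDR 0.0612 and 0.141).

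Of 8 genes whose products the study stained in synovial membrane, IL1B was the only DEG here. PPARG, a lipid-sensing nuclear receptor, had medians of 24.9 and 28.0 GeTMM, with a change of 0.22 (95% interval -0.07 to 0.51). MVK, mevalonate kinase, had a change of 0.24 (-0.07 to 0.54), and HMGCS1, an earlier enzyme of the same pathway, of -0.08 (-0.61 to 0.45). PPARGC1A, a coactivator of mitochondrial genes, had a change of 0.23 (-0.21 to 0.68), CSF1, the macrophage growth factor, of 0.14 (-0.77 to 1.05) and SIRT2, a deacetylase, of 0.06 (-0.22 to 0.33). These intervals leave room for changes of up to about 1 on the log2 scale in CSF1, and the signs of HMGCS1 and SIRT2 turned without Moon's library.

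In ISF the same interval had 1552 DEG (10.7%). Of the 558 SF DEG, 259 were also called in ISF, which is 46.4% of the SF list and 16.7% of the ISF list, and all 259 had the same sign, 47 upward and 212 downward. Without Moon's library the overlap was 344 genes, 64.1% of the SF list and 12.8% of the ISF list, and it was 236 when the 96-hour ISF libraries of Dealings and Dreamer were left out. Over all SF DEG, 93.4% had the same sign in ISF, against 65.0% of all genes tested. Whether the change differed between the fluids was tested directly in limma, and no gene passed with Moon's library (0.0%) or without it (0.0%). The smallest limma FDR was 0.154 and 0.135. An unadjusted p under 0.05 was reached by 1361 and 1261 genes, and some of the 14570 tested would reach it by chance alone. In the neutrophil precursor list all 6 genes were called lower in ISF, against 828 of all 14570 genes tested. None was called in SF, where all 6 changes were also negative. The medians were -2.64 and -0.95, and the difference for ELANE was 2.01 ± 1.504 (95% interval, unadjusted p = 0.0097 in limma, which did not pass). For LAG3 the change was 1.56 in SF and -0.27 in ISF, a difference of 1.83 with an FDR of 0.281 in limma. Of 10 glycolysis genes 6 were called higher in ISF (median 0.52), against 724 of all 14570 genes tested. None was called in SF (median -0.14, with 3 positive), and the list was not tested as a whole.

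The neighbouring intervals in SF share libraries with this one, so their values are given side by side only. SF had 7 libraries at 48 hours, without Moon, and 7 at 10 days, without Flash, so the medians do not all cover the same horses. From 48 to 96 hours 4664 genes were DEG (32.0%), and from 6 to 10 days 1450 (9.95%), or 892 (6.12%) without Moon's library. Over 48 hours, 96 hours, 6 days and 10 days, CSF3R had medians of 606, 140, 44 and 28.9 GeTMM and IL1B of 27.1, 9.95, 2.84 and 1.85. H2BC21 went from 257 to 106 and 35.9, and was at 49.8 at 10 days. ACOD1 likewise was lowest at 6 days, with medians of 283, 50.7, 12.01 and 43.7. Of the genes that rose, ITGB5 had medians of 26.9, 77.4, 155 and 226, SDC2 of 1.11, 6.66, 17.9 and 81.5, and IGFBP6 of 0.83, 4.62, 11.4 and 38.1. HGF, with 7.42, 14.2, 28.7 and 38.1, was at 32.7 in uncultured cells.

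**Figure D5:**
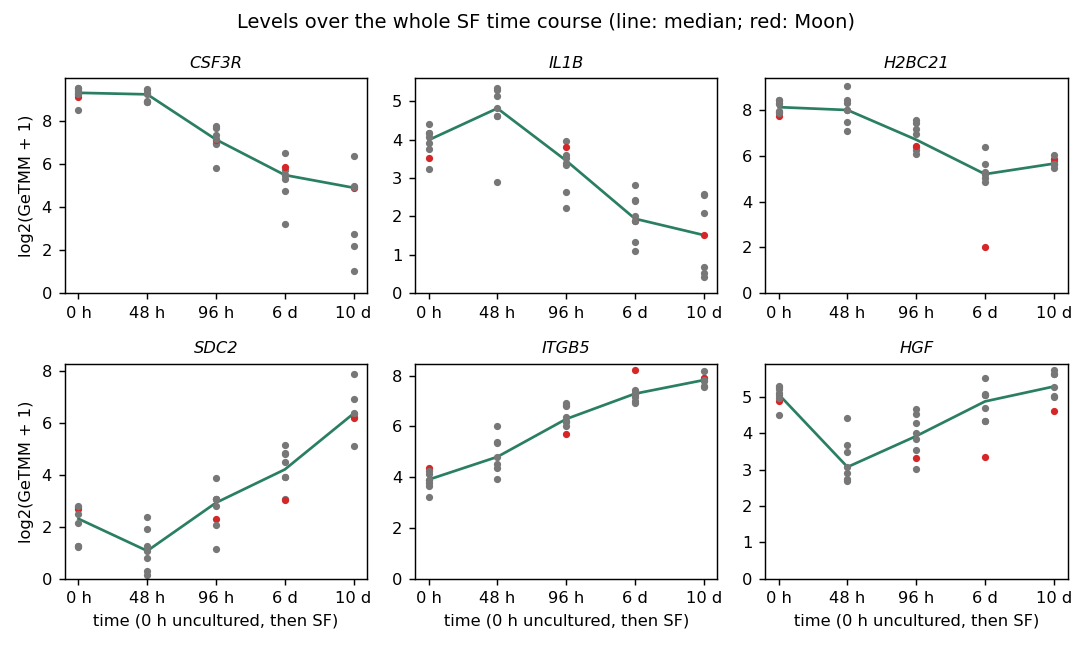
Levels of 6 genes (y axes, log2(GeTMM + 1)) in uncultured BMNC and over the SF time course (x axes), 1 point per library with Moon in red and a line through the medians. Moon has no library at 48 hours, and Flash has none at 10 days. Median CSF3R and IL1B fell at each step from 48 hours on, and H2BC21 was lowest at 6 days. SDC2, ITGB5 and HGF rose from 48 hours to 10 days.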

How the data were processed

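BMNC of 8 horses were sequenced before culture and at 4 later times in SF or ISF. At 48 hours and at 10 days each fluid had 7 libraries, without Moon and without Flash respectively. Per the labels and the study's methods, the authors mapped reads to EquCab3.0 with STAR 2.7.2a, counted them per gene and deposited GeTMM, an RPKM-like value (reads per kilobase) scaled by TMM. Each value was a whole number of reads times a constant per gene and library (within 0.02 reads for all 24065 genes above 0), which gave the depth: 15.7 to 36.0 M reads on genes over 68 libraries. Coordinates and sequences are not reported here.

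Values were transformed as log2(GeTMM + 1) and tested in R 4.3.3 with limma 3.58.1 (lmFit, eBayes with trend), two-sided, with 9 groups and a term for horse. Same-horse libraries deviate together (correlations of 0.23 to 0.71 between 96 hours and 6 days, each library closest to its own horse in 8 of 8), so horse was kept as a block. Within-horse tests flip signs exactly over horses. Fits were tested on simulated data with the same spread per gene in all libraries. This held no library like that of Moon at 6 days, so it cannot show how the fit deals with it. Members and gene lists were chosen with earlier results of these data known, and 5 lists after the values were seen. Named genes were the 10 highest and 10 lowest changes among DEG with a unique symbol, a mean of 5 GeTMM in 1 group and 7 of 8 horses alike, list members that passed or were abundant, and the stained genes. Replicates are separate horses, and each culture was sequenced from 1 well. Tables used Python 3.11.15, numpy 2.4.6, pandas 2.3.3, and figures matplotlib 3.10.9. Results of 3 listed genes are not reported here.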

Additional observations from a re-analysis of the deposited data

Results flagged for a closer look

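In 27 groups of 8 horses or libraries, the highest or lowest value was compared with the rest, and chance alone marks about 1 in 20 groups. All values set apart belong to Moon. The RMS change of this horse in SF was 1.53, its 6-day library had a sum of 2.3219 M GeTMM and 12797 genes above 0, and its changes in LAG3 (3.79), ACOD1 (-5.49) and IFIT2 (-6.02) lay far from those of the other 7 horses. LAG3, ACOD1 and IFIT2 were DEG without that library too.

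Between the fluids, the RMS change of the 7 horses other than Moon was smaller in SF than in ISF by a mean of -0.1445 (exact permutation p = 0.0313, lower in 6 of 7 horses). The horses Dealings and Dreamer, whose ISF libraries at 96 hours were most like the other horse of the pair at 6 days, show the 2 largest differences, and without them it was -0.0893 (lower in 4 of 5 horses, exact permutation p = 0.125).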

How the results depend on the processing

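The count of 558 DEG (164 higher, 394 lower) moved with several settings. With no replicate block for horse it was 298 (63 higher, 235 lower), and paired by horse in the 16 SF libraries alone 192 (60 and 132) or, with no block, 61 (9 and 52). With no block and without Moon's library, an alternative chosen after seeing the data, it was 206 (63 and 143). The 14 libraries of the other 7 horses gave 1501 (829 and 672), array weights 1416 (721 and 695), and a log2 change of at least 1 left 151 (30 and 121). Rescaling each library to a sum of 1 M GeTMM gave 57 higher and 543 lower. Leaving out 1 horse at a time gave 313 (without RimRun) to 583 DEG, 84 to 173 higher and 225 to 411 lower. The other settings, a pseudocount of 0.1, other filters, median centring, voom and the fit without Moon's library, stayed within 1.5 times.

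The difference between fluids called 0 genes in all but 2 settings, 43 with array weights and 2 without Moon's library and the 2 ISF libraries. The RMS difference of 0.0114 turned to -0.1445 without Moon, to -0.0893 without the 2 ISF libraries as well and to -0.0001 with a filter of 10 GeTMM, and lay between -0.1445 and 0.0579 with 1 horse left out. Within-horse exact tests, adjusted over the 113 genes of the naming rule, passed for 26 and for 0 with 7 horses, which allow no p under 0.0156 before adjustment. Of the 26 genes 23 were DEG, and same direction was a condition of the choice for some, so their passing is no separate support. Without Moon's library ISF had 2680 DEG and SF from 6 to 10 days 892.

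NCR1, MPIG6B and ISG20 were not followed through the alternatives. Of the other 51 DEG named, none turned in sign under any alternative, and 13 were called under all of them. The call was lost by 9 without Moon's library, 15 with no block, 20 in the 16 SF libraries with the block and 36 with no block, 23 with no block and without Moon's library, and 4 (without Catnip) to 19 (without RimRun) with 1 horse left out. Among genes that did not pass, some turned. Without Moon's library, in the 7-horse fit, with array weights, and with no block and without Moon's library, GPNMB was at 0.24, 0.2018, 0.27 and 0.2032, HMGCS1 at 0.22, 0.14, 0.16 and 0.26, and SIRT2 at -0.10, -0.092, -0.0543 and -0.0741. With median centring GPNMB was at 0.0677. Rescaled to 1 M, SIRT2 was at -0.13, CD163 at -0.02, CD68 at -0.0834 and CSF1 at -0.0082. With 1 horse left out, CSF1 lay between -0.1015 and 0.5007, GPNMB between -0.0865 and 0.2018, HMGCS1 between -0.1788 and 0.1407, S100A12 between -0.5135 and 0.1062 and SIRT2 between -0.092 and 0.1457. The cause was not tested.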
